A study of Mus musculus with 7 samples.

Results

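The 9 secreted or secretory-pathway genes of the intestinal goblet cell studied here, Muc2, Fcgbp, Clca1, Agr2, Tff3, Spink4, Zg16, Sval1 and Klk1, were followed through development of the mouse colon. They are 9 of the 18194 genes measured. They were selected from earlier results on these same arrays, so their levels, stages of onset and changes are given below as a description, with no test, and rose, fell, higher and lower refer for these 9 to the size of a difference between single arrays.

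The colon of inbred C57BL/6 mice was profiled on Affymetrix Mouse Genome 430 2.0 arrays, which measure each gene through 1 or more probe sets. Each embryonic day from E13.5 to E18.5 had 1 array, and so did the adult colon at 8 weeks of age, which makes 7 arrays of total RNA. Whether an array held the RNA of 1 animal or of several, and the sex of the adult, were not given in the sources used here. With 1 array per stage there is no error for a single stage and no test between a pair of stages. All values are log2 levels normalized by RMA, so a difference of 1 is a 2-fold change.

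Goblet cells are secretory cells of the intestinal epithelium that arise from progenitors in which Atoh1 is active and Notch signaling is low. They fold and glycosylate the gel-forming mucin in the endoplasmic reticulum and Golgi, pack it into granules and release it to the gut surface, where it swells into the mucus layer that keeps bacteria from the epithelium of the colon. The colon is the segment of the mouse gut richest in goblet cells. The genes below therefore include secreted components of the mucus gel (Muc2, Fcgbp, Clca1, Zg16) and a folding factor (Agr2). The others are small secreted peptides (Tff3, Spink4) and secreted proteins whose role in mucus is less settled (Klk1, Sval1).

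Promoter sequences were found for 5 of the 9 genes in the RefSeq table for GRCm38.p6, each running from 250 bases before to 50 bases after the transcription start. Of these, 4 are shown because they stand for both timings seen below: Agr2 rose from E14.5, whereas Muc2, Fcgbp and Sval1 rose from E16.5. Capitals mark every match, on either strand, to the motifs described after the sequences. The Muc2 promoter lies at chr7:141690090-141690389 on the plus strand, that of Fcgbp at chr7:28070986-28071285 (plus), that of Sval1 at chr6:41951378-41951677 (plus) and that of Agr2 at chr12:35992675-35992974 (plus). Each is written 5′ to 3′.
Muc2: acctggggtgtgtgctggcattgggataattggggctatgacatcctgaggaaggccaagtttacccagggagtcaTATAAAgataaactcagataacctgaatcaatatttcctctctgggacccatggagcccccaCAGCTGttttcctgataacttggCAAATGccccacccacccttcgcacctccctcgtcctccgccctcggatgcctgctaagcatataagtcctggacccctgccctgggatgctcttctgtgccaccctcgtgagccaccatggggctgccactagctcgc
Fcgbp: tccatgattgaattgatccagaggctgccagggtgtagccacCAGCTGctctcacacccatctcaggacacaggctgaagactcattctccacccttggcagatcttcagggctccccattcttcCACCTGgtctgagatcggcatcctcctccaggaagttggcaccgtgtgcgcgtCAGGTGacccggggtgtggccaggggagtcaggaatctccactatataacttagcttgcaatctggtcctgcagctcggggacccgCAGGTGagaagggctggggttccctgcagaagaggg
Sval1: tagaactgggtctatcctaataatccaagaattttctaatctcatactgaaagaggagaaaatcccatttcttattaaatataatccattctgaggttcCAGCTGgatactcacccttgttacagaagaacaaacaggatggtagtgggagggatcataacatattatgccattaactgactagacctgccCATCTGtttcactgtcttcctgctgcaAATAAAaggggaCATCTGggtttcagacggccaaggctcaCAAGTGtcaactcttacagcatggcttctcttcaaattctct
Agr2: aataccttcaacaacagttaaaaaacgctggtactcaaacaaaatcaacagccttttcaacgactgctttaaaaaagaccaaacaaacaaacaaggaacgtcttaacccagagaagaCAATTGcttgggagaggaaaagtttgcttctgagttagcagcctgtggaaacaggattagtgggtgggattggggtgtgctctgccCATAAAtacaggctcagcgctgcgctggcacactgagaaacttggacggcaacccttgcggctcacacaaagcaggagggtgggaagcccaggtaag

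The motif CANNTG, the E-box bound by basic helix-loop-helix factors such as Atoh1, was present in all 5 promoters, Klk1 included, and in 72.3% of 32851 mouse promoters of the same length. Its form CAGATG (read CATCTG on the other strand), a core described for Atoh1, stood in 2 of the 5, Sval1 and Klk1, against 17.2% of all promoters. The form CAGCTG stood in 3, Muc2, Fcgbp and Sval1, against 16.3%. Both forms are also counted under CANNTG. Of 2 letter forms used for Cdx factors, TTTATG was found in Agr2 only (11.9% of all promoters) and TTTATT in Sval1 only (19.6%). TATAAA was found in Muc2 only, 174 bases before the start (13.6%). The forms TGTTTAC (3.65%) and TGTTTGC (5.07%) for Foxa factors, CCGGAT (6.04%) for Spdef and GACGTG (6.38%) for Xbp1 and Creb3-type factors were not in these 5 windows. A match is a run of letters and not a measured binding site.

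All 9 genes were higher in the adult colon than at E13.5, by 4.05 (Klk1) to 7.58 (Sval1) on the log2 scale for gene medians, with a median of 6.62. They did not start together. Agr2 was the first to stand at least 2-fold above its E13.5 level at that and every later stage, from E14.5. Tff3 and Spink4 followed from E15.5, then Muc2, Fcgbp, Clca1, Sval1 and Klk1 from E16.5, and Zg16 last, from E17.5. The number of genes at least 2-fold above E13.5 was thus 1 at E14.5, 3 at E15.5, 8 at E16.5 and all 9 from E17.5 onwards. The early place of Agr2 rests on this threshold. With a threshold of 2 on the log2 scale its onset was E15.5, with Tff3 and Spink4, and that of Muc2 was E17.5. Of all 18194 genes, 0.324%, 0.846%, 2.11%, 3.60%, 4.89% and 9.44% passed the same fold at these 6 stages.

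**Figure D1:**
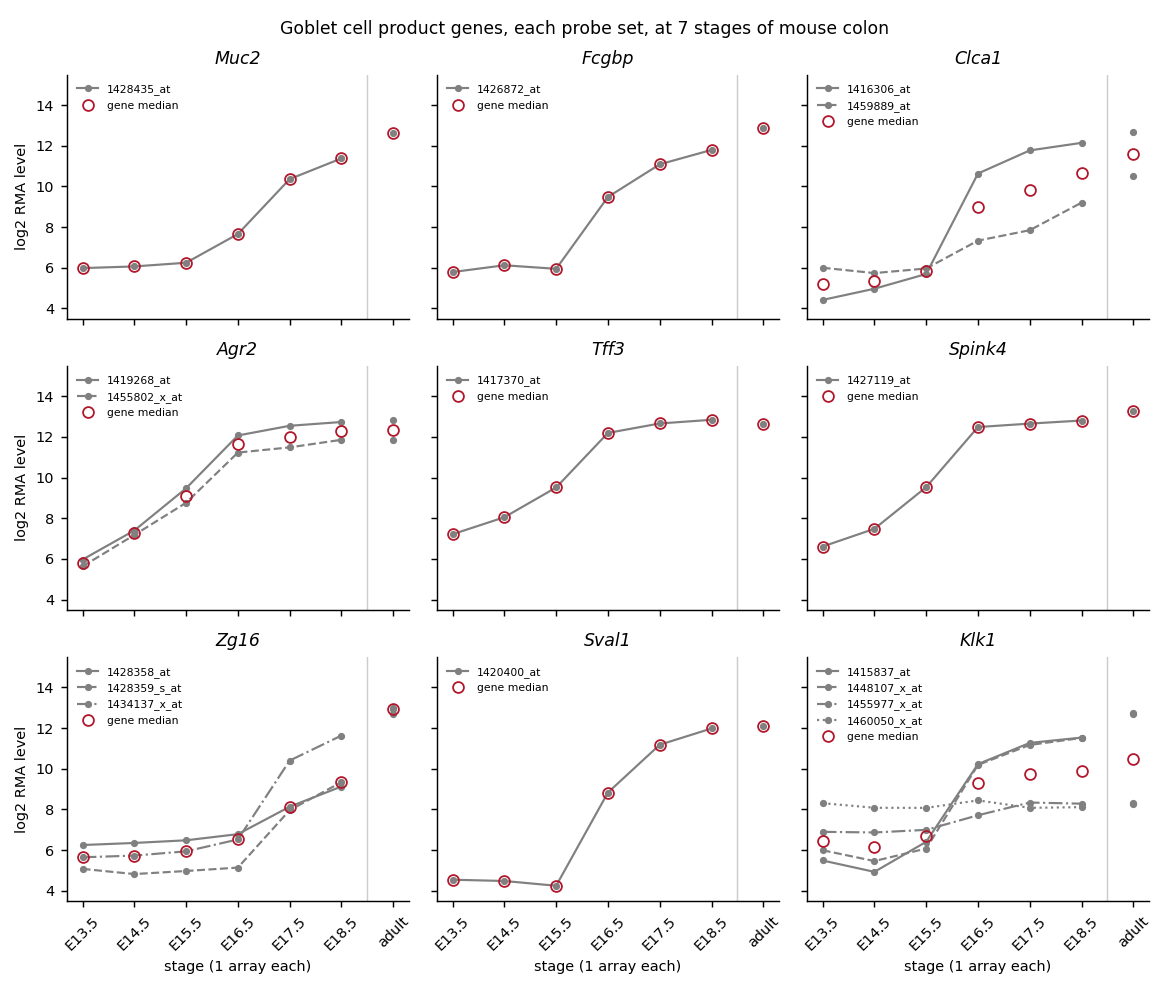
Log2 RMA level (vertical axis) of each probe set (grey lines and dots) and of the gene median (red circles) at 7 stages (horizontal axis, 1 array each) for the 9 genes, with no error bars because each stage is 1 array. Agr2, Tff3 and Spink4 climbed before E16.5, Zg16 only after it, and the 4 probe sets of Klk1 did not move alike.

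The plot of levels by stage shows the mucus gel genes first. Muc2 (chromosome 7, 141690340 to 141754691, GRCm38.p6) encodes the gel-forming mucin that makes up the net of colonic mucus. Its single probe set read 5.99, 6.07, 6.25, 7.66, 10.36 and 11.38 on the 6 successive embryonic days and 12.61 in the adult. The first 3 stages lay within 0.26 of each other, and the largest single step, 2.70, came between E16.5 and E17.5. On gene medians Muc2 was the only one of the 9 whose largest step fell there, but the Zg16 probe set 1434137_x_at, described below, also had its largest step there (6.53 to 10.41).

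Fcgbp (chromosome 7, 28071236 to 28120864) encodes a large von Willebrand D domain protein that is secreted with Muc2. It read 5.79, 6.12, 5.95, 9.48, 11.09 and 11.79 on the 6 successive embryonic days and 12.86 in the adult. The 3 flat stages were followed by an 11.6-fold step between E15.5 and E16.5, and 52.2% of the log2 rise from E13.5 to the adult was present at E16.5, compared with 25.3% for Muc2.

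Clca1 (chromosome 3, 145004537 to 145032776; formerly Clca3 in the mouse) encodes a secreted metalloprotease that acts on mucus. Its gene median read 5.21, 5.36, 5.83, 8.99, 9.81 and 10.67 from E13.5 to E18.5 and 11.59 in the adult. The 2 probe sets of the gene gave different sizes and onsets. Probe set 1416306_at read 4.42, 4.97, 5.70, 10.63, 11.77 and 12.14 across the embryonic stages and 12.67 in the adult, a 304-fold rise with onset at E15.5. Probe set 1459889_at read 6.00, 5.74, 5.97, 7.34, 7.85 and 9.20, then 10.51, a 22.8-fold rise with onset at E16.5. Both probe sets stepped up by at least 1.37 between E15.5 and E16.5.

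Zg16 (chromosome 7, 127050156 to 127052675) encodes a small lectin that binds the walls of Gram-positive bacteria in mucus and was first known from zymogen granules of the pancreas. Its gene median read 5.65, 5.73, 5.94, 6.53, 8.14 and 9.34 from E13.5 to E18.5 and 12.95 in the adult. On gene medians it was the latest of the 9 genes, and the only one whose largest step, 3.60 or 12.2-fold, lay between E18.5 and the adult. At E18.5 it had covered 50.6% of its rise, against 81.4% to 104% for the other 8 genes. That late timing was not shared by all 3 probe sets. Probe sets 1428358_at and 1428359_s_at gained 3.54 and 3.60 after E18.5, whereas 1434137_x_at, at 10.41 by E17.5 and 11.64 by E18.5, had only 1.37 left to its adult value of 13.01. With 1434137_x_at alone, the probe set with the highest mean, onset was still at E17.5 but 81.3% of the rise was present at E18.5.

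Agr2 (chromosome 12, 35992925 to 36004081) encodes a protein disulfide isomerase of the endoplasmic reticulum that Muc2 needs for folding. It read 5.80, 7.29, 9.12, 11.65, 12.02 and 12.30 on the 6 successive embryonic days and 12.34 in the adult. The folding factor was therefore 3.32 above its E13.5 level at E15.5, a stage at which Muc2 was 0.26 above its own. Muc2 then read 6.25 on its single probe set, close to levels at which low expression and background cannot be separated here. Its 2 probe sets, 1419268_at and 1455802_x_at, both had their onset at E14.5 and rose 115-fold and 74.7-fold to the adult. The level changed by 0.04 between E18.5 and the adult.

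Tff3 (chromosome 17, 31125306 to 31129611) encodes a trefoil peptide that is secreted with mucus and takes part in epithelial repair. It read 7.22, 8.05, 9.51, 12.20, 12.66 and 12.84 from E13.5 to E18.5 and 12.65 in the adult. It was the only one of the 9 genes that was lower in the adult than at E18.5, by 0.20. Spink4 (chromosome 4, 40920056 to 40931395) encodes a small secreted peptide with a Kazal-type protease inhibitor domain. It read 6.61, 7.48, 9.53, 12.49, 12.65 and 12.81 from E13.5 to E18.5 and 13.28 in the adult. Tff3 and Spink4 were, with Agr2, the genes nearest to their adult level at E16.5, having covered 91.7%, 88.2% and 89.5% of the rise.

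These 3 plateaus lay close to the top of the scale. The highest level of any gene was 13.15 to 13.19 on the embryonic arrays, and on the adult array it was 13.28, the value of Spink4 itself. How far the top of the scale flattened these genes after E16.5 was not tested. Levels near 4 to 6 cannot be split here into low expression and background, since no detection calls were used.

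Sval1 (chromosome 6, 41951628 to 41956098) is named for its likeness to a seminal vesicle antigen. It read 4.55, 4.49, 4.25, 8.83, 11.18 and 11.98 on the 6 successive embryonic days and 12.12 in the adult. Its step between E15.5 and E16.5 was 4.58. The 3 earliest values lie in the range where low expression and background cannot be separated. The place of Sval1 as the largest of the 9 on gene medians, in this step, in the rise of 7.58 to the adult and in slope, is therefore uncertain. The change after E18.5 was 0.14. On a seminal vesicle list (Svs2, Svs3a, Svs4, Svs5, Svs6, Pate4), 0 of 6 measured genes were called by the limma test described below (0 also at an unadjusted p under 0.05), a count too small to set apart from the shares of all genes called (9.12% rising, 10.4% falling). Their median stayed within 0.12 of its E13.5 level at every stage.

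Klk1 (chromosome 7, 44225360 to 44229622) encodes tissue kallikrein, a secreted serine protease that releases kinins and is also made in pancreas and kidney. Its gene median read 6.45, 6.17, 6.71, 9.32, 9.76 and 9.90 from E13.5 to E18.5 and 10.50 in the adult, but the 4 probe sets fell into separate patterns. Probe set 1415837_at read 5.49, 4.93, 6.41, 10.23, 11.27 and 11.53, then 12.76 in the adult, a 154-fold rise. Probe set 1448107_x_at followed it closely, from 6.00 at the start to 11.52 by E18.5 and 12.69 in the adult, a 104-fold rise. In contrast, 1455977_x_at went from 6.90 to 8.29 and 8.30, a 2.64-fold rise, and 1460050_x_at stayed between 8.08 and 8.45 at every stage. The suffix x marks probe sets whose probes can also match other transcripts, and Klk1 belongs to a large family of closely related mouse kallikreins, so the size of the Klk1 rise is uncertain. On the first 2 probe sets, the adult stood 1.23 and 1.18 above E18.5, while the gene median gave 0.60.

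**Figure D2:**
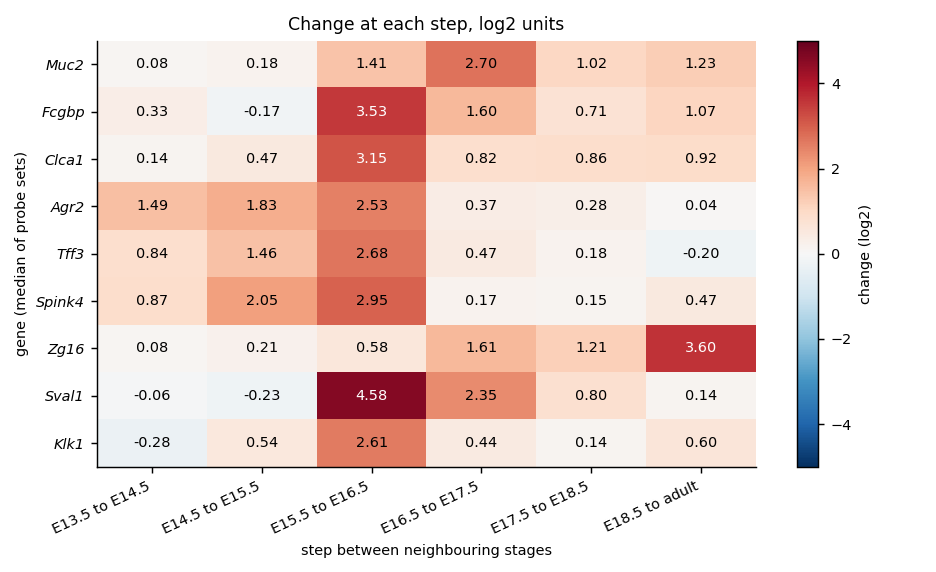
Change of the gene median between neighbouring stages, in log2 units (colour and printed value), for the 9 genes (rows) and 6 steps (columns), 1 array per stage and so no error. The step from E15.5 to E16.5 is the largest for 7 genes, with Muc2 peaking 1 step later and Zg16 in the step to the adult.

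Read by step rather than by gene, the map of changes between neighbouring stages had its densest column between E15.5 and E16.5. Of the 9 genes, 8 rose at least 2-fold there, against 1.01% of all genes, and only Zg16, at 0.58, did not. For 7 of the 9 it was the largest step of the gene median. On lists described below, 6 of 11 goblet cell regulators, 5 of 14 enteroendocrine and 4 of 14 colonocyte genes also rose at least 2-fold there. So did 5 of 20 pan-epithelial genes and 3 of 14 genes of stroma and muscle. With 1 array per stage, the part of a difference between these samples in the step was not tested. Earlier, 3 genes (Agr2, Tff3 and Spink4) had risen at least 2-fold between E14.5 and E15.5, against 0.0934% of all genes. Later, 4 genes (Muc2, Fcgbp, Zg16 and Sval1) did so between E16.5 and E17.5, against 0.649%, and 2 (Muc2 and Zg16) between E17.5 and E18.5, against 0.368%. Since the genes were selected on these arrays, nothing is read from these shares beyond the timing. The slope over the 6 embryonic stages ran from 0.75 (SE 0.12) per day for Zg16 to 1.77 (SE 0.28) for Sval1.

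The day at which the midpoint of the rise from E13.5 to E18.5 was reached, by linear interpolation on the log2 scale, ordered the genes in a similar way. It was day 15.46 for Agr2, 15.56 for Spink4 and 15.69 for Tff3. The next were Klk1 at 16.06, Clca1 at 16.17, Fcgbp at 16.30 and Sval1 at 16.38. Muc2 at 16.88 and Zg16 at 17.10 were the last. With 1 array per stage, no error can be put on these days, and neighbours in this order were not tested against each other.

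Between E18.5 and the adult, Muc2, Fcgbp and Zg16 rose by at least 2-fold, by 1.23, 1.07 and 3.60, a fold that 4.33% of all genes passed in that direction. None of the 9 was at least 2-fold lower, which 3.84% of all genes were. With a 1.5-fold threshold the count was 5 of 9, adding Clca1 (0.92) and Klk1 (0.60).

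**Figure D3:**
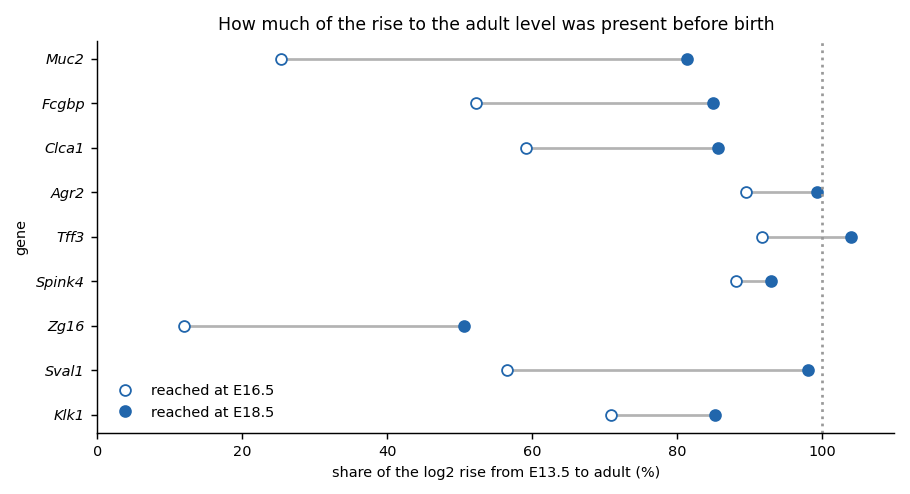
Share of the log2 rise from E13.5 to the adult (horizontal axis, %) that each gene had covered at E16.5 (open circles) and at E18.5 (filled circles), from gene medians of 1 array per stage, with 100 marking the adult level. Agr2, Tff3 and Spink4 were at 88.2% to 91.7% by E16.5, while Zg16 was at 12.0% then and at 50.6% by E18.5.

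By the definition of development-related genes that the study used, applied here to all mouse genes, 7 of the 9 genes were in the set and rising, against 3.08% of all genes. The 9 were selected from earlier results on these same arrays, so nothing is read from that share. That definition ranks by median absolute deviation and keeps the top 1000 of those whose Spearman correlation with developmental order exceeds 0.9 in size. Fcgbp was 2nd, Clca1 6th and Muc2 28th by that deviation. Tff3 and Sval1 were outside it, with correlations of 0.89 and 0.86, since Tff3 was lower in the adult and Sval1 dipped at E14.5 and E15.5.

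In whole colon, more goblet cells and more RNA per goblet cell cannot be told apart, and the share of epithelium may change as well. A list of 20 pan-epithelial genes was therefore set beside the 9. Their median change from E13.5 was 0.34 at E15.5, 0.92 at E16.5, 1.27 by E18.5 and 1.84 in the adult, where the goblet genes had 0.29, 3.77, 5.62 and 6.62 and the median of all genes was 0.00, 0.00, -0.01 and 0.04. At E16.5, 7 of the 9 genes had risen more than any pan-epithelial gene (the largest was Krt19 at 1.76), the exceptions being Muc2 at 1.68 and Zg16 at 0.88. From E17.5 on all 9 had. The 9 were selected on these arrays and read 4.55 to 7.22 at E13.5. Some pan-epithelial genes read far higher then, such as Esrp1 at 11.12 and Cdh1 at 10.69, and others as low, such as Ehf at 5.43. The highest level of any gene in the adult was 13.28, so the former had less room to rise. The part of this, and of the share of epithelium, in the comparison was not tested.

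The epithelial list itself rose. A line over the 6 embryonic stages and an adult term were fitted to all 18194 genes with limma. The adult has no replicate, so an adult p measures its distance from the line against the scatter of the 6 embryonic arrays only, not against a spread among adults. A slope p likewise measures the slope against the scatter of single arrays around a straight line, not against a spread among animals. A curved course adds to that scatter and moves the fitted E18.5 level. For Agr2 the adult differed by -0.87 from the fitted level and by 0.04 from the E18.5 array. Slopes with an adjusted p (Benjamini-Hochberg) under 0.05 were called. Of the 20 pan-epithelial genes, 17 rose and 0 fell (0 also at an unadjusted p under 0.05), against 9.12% of all genes rising and 10.4% falling. The largest slopes were those of Cdx1, an intestinal homeobox factor (0.60 per day, SE 0.06, adjusted p = 0.00167), Vil1, the microvillus protein villin (0.56, SE 0.04, adjusted p = 0.000769), and Ehf, an epithelial Ets factor (0.50, SE 0.05, adjusted p = 0.00222). The count fell to 10 without the E13.5 array and to 11 without the E17.5 array.

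**Figure D4:**
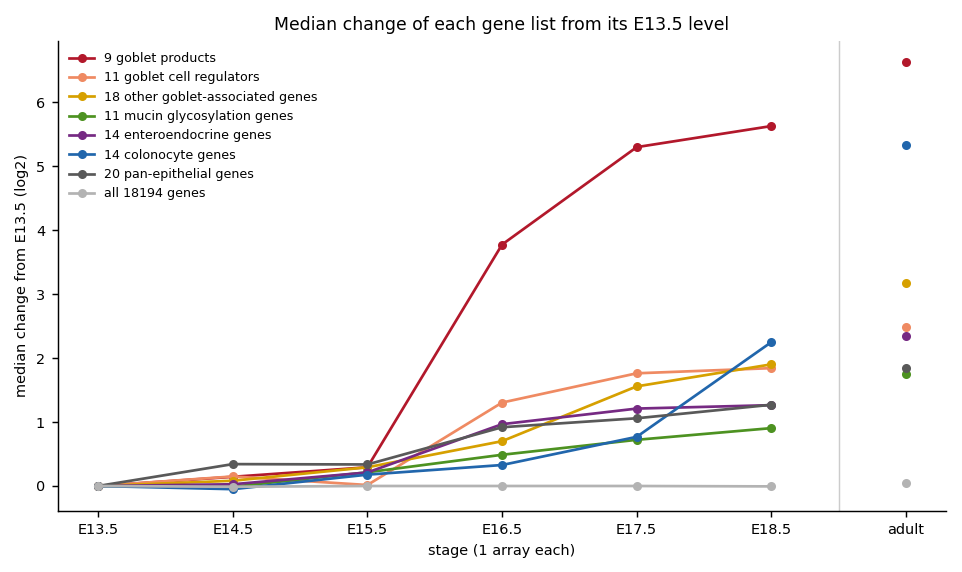
Median change from E13.5 (vertical axis, log2) over the genes of each list at 7 stages (horizontal axis, 1 array each); lines join embryonic stages and separate dots give the adult, and no error is drawn. The 9 goblet products stood at 3.77 by E16.5, where the pan-epithelial list stood at 0.92 and all genes at 0.00.

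A further 40 genes of the goblet cell, none of them among the 9, were read from the same fit. Of these partner genes 32 rose along the embryonic stages, 0 fell (0 also at an unadjusted p under 0.05) and 8 were not called. Of all genes, 9.12% rose and 10.4% fell. Without the E18.5 array 21 rose. The median slope of the partner genes was 0.35 per day, compared with 0.00 over all genes. For the 20 pan-epithelial genes, of which 17 rose, it was 0.29, so a rise of this kind was not particular to the goblet cell lists. All of these lists were chosen with earlier results of these arrays known. Their counts beside the shares of all genes are therefore a description and no independent test.

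Transcription factors and stress-response genes that build the secretory cell rose in 9 of 11 cases, against 9.12% of all genes. The others were Foxa1 (adjusted p = 0.489) and Foxa2 (adjusted p = 0.0502). Atoh1, the factor that commits cells to the secretory lineage, read 4.86, 5.03, 5.18, 6.25, 7.18 and 6.73 on the 6 successive embryonic days and 8.57 in the adult. Its slope was 0.48 per day (SE 0.08, adjusted p = 0.00819). Spdef, an Ets factor of goblet cell maturation, read 6.03, 5.31, 5.91, 7.33, 7.79 and 8.13 from E13.5 to E18.5 and 8.98 in the adult (slope 0.55, SE 0.10, adjusted p = 0.0128). Both were at least 2-fold above E13.5 from E16.5 on, the onset stage of Muc2, Fcgbp, Clca1, Sval1 and Klk1.

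Klf4, a zinc finger factor of goblet cell differentiation, rose by 0.68 per day (SE 0.06, adjusted p = 0.00122), from 7.70 at E13.5 to 8.39 at E15.5, 9.79 at E16.5, 10.77 by E18.5 and 11.73 in the adult. Creb3l4, a membrane-bound factor released by proteolysis, rose at the same pace (0.68, SE 0.08, adjusted p = 0.00264). It read 5.68, 6.58, 6.75, 8.42, 8.70 and 8.86 from E13.5 to E18.5 and 9.19 in the adult. Creb3l4 was at least 2-fold above E13.5 from E15.5, as Tff3 and Spink4 were.

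Genes of mucin O-glycosylation, the step that coats the mucin backbone with sugars, rose in 7 of 11 cases, against 9.12% of all genes. Galnt12, which adds the first sugar, had the largest slope at 0.72 (SE 0.12, adjusted p = 0.00767) and went from 6.89 at E15.5 to 8.99 at E16.5 and 9.72 at E18.5. Gcnt3, a branching enzyme, rose by 0.38 per day (SE 0.05, adjusted p = 0.0029) and then stood 2.46 (SE 0.24) above its fitted E18.5 level in the adult, with an adjusted p of 0.000763. C1galt1, the core 1 synthase, rose by 0.35 per day (SE 0.03, adjusted p = 0.00172). B3gnt6, the core 3 synthase, did not pass along the embryonic stages (slope 0.04, adjusted p = 0.396), lay between 4.52 and 4.87 at all of them, and read 7.90 in the adult, 3.16 above the fitted level (SE 0.14, adjusted p = 3.9e-05).

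Other goblet-associated genes rose in 16 of 18 cases, against 9.12% of all genes. Dmbt1, a secreted scavenger receptor protein of mucus, rose by 1.53 per day (SE 0.18, adjusted p = 0.00276), from 5.12 at the start to 8.74 at E16.5 and 13.11 in the adult. Guca2a, the hormone guanylin, rose by 1.21 (SE 0.10, adjusted p = 0.00112), and Oit1 by 1.06 (SE 0.11, adjusted p = 0.00185). Oit1 had its onset at E14.5, as Agr2 did. That onset was not particular to goblet genes, since Lypd8 of the colonocyte list and Lum of the stroma and muscle list shared it. Retnlb and Ang4, both secreted antibacterial proteins, were late. Retnlb read 4.64, 4.64, 4.80, 4.96, 4.96 and 5.95 from E13.5 to E18.5 and 11.15 in the adult, 5.60 above the fitted E18.5 level (SE 0.30, adjusted p = 8.03e-05). Ang4 read 7.11 by E18.5 and 11.02 in the adult, 4.41 above the fitted level (SE 0.39, adjusted p = 0.000576).

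Of the 40 partner genes, 9 were higher in the adult by at least 1 in limma (adjusted p under 0.05) and 0 were lower (0 also at an unadjusted p under 0.05), where 4.23% of all genes were higher and 3.26% lower. They were Atoh1 (8.57 against 6.73 at E18.5, adjusted p = 0.0477), B3gnt6, C1galt1, Gcnt3, B3galt5, Retnlb, Ang4, Best2 and Nlrp6. These calls rest on the lone adult array, taken to vary like the embryonic ones, whose RNA controls stand apart as given below.

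**Figure D5:**
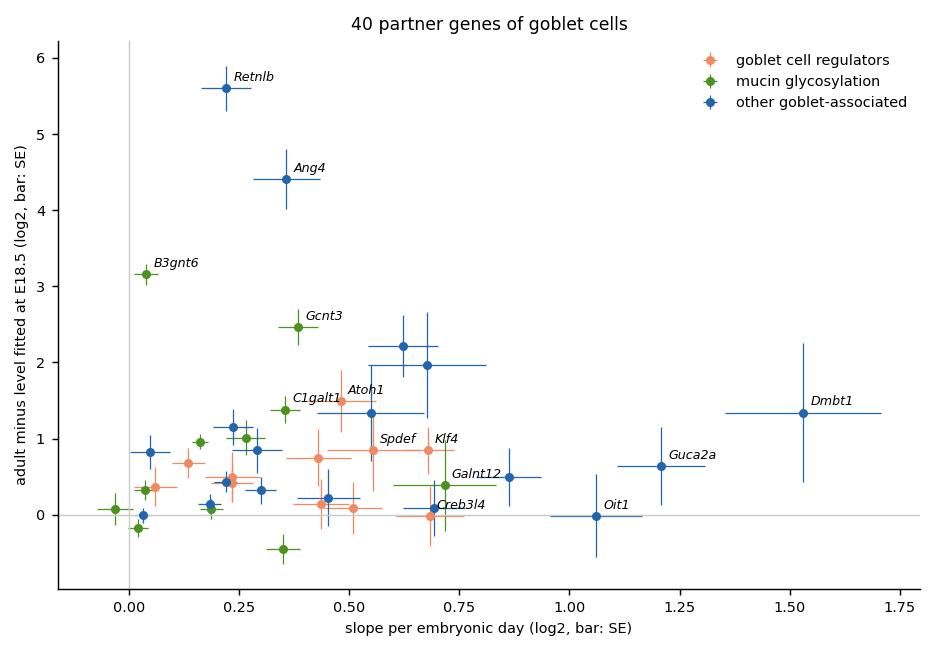
Slope per embryonic day (horizontal axis, log2) against the adult level minus the level fitted at E18.5 (vertical axis, log2) for the 40 partner genes, with bars of 1 standard error from limma on 7 arrays. Dmbt1 lies far right at 1.53 per day, while Retnlb (5.60), Ang4 (4.41) and B3gnt6 (3.16) lie high, as genes that differ mainly in the adult.

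Of 32 relatives of the 9 genes listed, 23 were measured. Along the embryonic stages 2 of these rose (4 at an unadjusted p under 0.05) and 0 fell (0 unadjusted), a share near the 9.12% of all genes that rose. In the adult 2 were higher, Clca4a and Clca3a1 (8 at an unadjusted p under 0.05), against 4.23% of all genes. Spink1, a secreted trypsin inhibitor of the Spink4 family, rose by 0.75 per day (SE 0.09, adjusted p = 0.00292), reading 9.50 at E13.5, 12.04 at E16.5, 12.93 by E18.5 and 12.10 in the adult. Clca4b rose by 0.65 (SE 0.16, adjusted p = 0.0341) and read 4.29 at E16.5, 7.69 by E18.5 and 5.28 in the adult. Its relative Clca4a lay between 4.47 and 4.81 at the embryonic stages and read 11.31 on the adult array, and Clca3a1 read 4.62 at E18.5 and 5.62 in the adult. Muc5ac and Muc5b, the gel-forming mucins of stomach and airway, spanned 0.30 and 0.38 over all 7 stages, the trefoil genes Tff1 and Tff2 spanned 0.77 and 0.63, and Agr3 and Sval2 spanned 0.55 and 0.27.

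Klk1 and Zg16 are also products of the pancreas, so 16 measured genes of 18 on an acinar list were followed as well. Their summed linear level was 677 to 991 at the embryonic stages and 6427 in the adult, and 7 of 16 were higher in the adult, against 4.23% of all genes. Along the embryonic stages 5 of 16 rose, against 9.12% of all genes, among them Clps (slope 0.36, SE 0.06, adjusted p = 0.00778), which was at least 2-fold above E13.5 from E16.5, and Sycn (slope 0.23, SE 0.03, adjusted p = 0.00389). Sycn read 8.13 by E18.5 and 11.94 in the adult, a difference of 3.92 from the fitted level (SE 0.16, adjusted p = 2.58e-05), and Cela1 read 6.26 and 9.96 (3.97, SE 0.21, adjusted p = 8.44e-05). Most of the adult sum came from Sycn, Cela1 and Clps, the last at 9.27 in the adult, and the next highest gene, Cpa1, read 7.18. The acinar factor Ptf1a read 4.90 in the adult and Gp2 read 4.79, and over all 7 stages they spanned 0.38 and 0.37. The part of these transcripts in the adult values of Zg16 and Klk1 was not tested.

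The adult array also differed in its RNA controls. The level at the 5′ end of Gapdh minus that at the 3′ end was -2.41 in the adult, outside the embryonic range of -1.59 to -1.29, and for Actb it was -2.66, outside -2.14 to -1.96. The part of this in the differences between the adult and E18.5 was not tested.

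The genes most like the 9 in pattern were ranked by Pearson correlation with their median profile over the 7 stages, among genes that spanned at least 2 on the log2 scale. All share the same 7 arrays, and any gene that climbed late in gestation and stayed high scores well, so the correlations are a description without a p. The 10 highest were Hepacam2 (r = 0.9986), Muc13 (0.9979), Guca2a (0.9978), Gmds (0.9962), Pglyrp1 (0.9961), Ms4a8a (0.9951), Nans (0.9946), Klf4 (0.9934), Dpt (0.9931) and Naip2 (0.9929). Hepacam2 and Guca2a belong to the goblet-associated list and Klf4 to the regulators. Muc13 is a membrane-bound mucin, Gmds makes the precursor of the fucose donor and Nans makes sialic acid, while Dpt encodes the matrix protein dermatopontin.

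Taken one by one, the nearest gene was Slc51b for Muc2 (r = 0.9979), Rarres2 for Fcgbp (0.9971), Dpt for both Clca1 (0.9957) and Klk1 (0.9976), Retsat for Zg16 (0.9988) and Mien1 for Sval1 (0.9956). It was Fgfbp1 for Agr2 (0.9876), Lypd8 for Tff3 (0.9861) and Cd83 for Spink4 (0.9854). Among the 9 themselves, the 36 pairwise correlations ran from 0.703 for Zg16 with Tff3 to 0.996 for Spink4 with Agr2. Agr2, Tff3 and Spink4 were the most alike, and Zg16 was least like these same 3.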

How the data were processed

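Per the labels, total RNA of C57BL/6 colon was hybridized to 7 arrays, 1 per stage. The authors deposited log2 values from RMA, which corrects background, gives the arrays a common distribution and summarizes probes; affy 1.22.1 and R 2.9.2 are the versions in the submitters' processing notes. Such values hide any shift that most genes share. Array number, not read depth, limits precision.

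The 34958 probe sets that name 1 gene were kept, names were updated through gene identifiers (18033 of 18195 matched), and the median over probe sets was taken per gene. All genes were fitted with limma 3.58.1 (lmFit and eBayes; R 4.3.3) on embryonic day and an adult term, leaving 4 residual degrees of freedom; p-values were adjusted by the Benjamini-Hochberg method over 18194 genes. An adult difference was called at an adjusted p under 0.05 and a size of at least 1. The fit was tested on simulated data.

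The 9 genes and all lists were chosen with earlier results of these data known. Named were the 9 and the genes most alike in pattern, leaving out clone and gene-model names. Per list, names were drawn from the 3 steepest genes and the 2 that differed most in the adult, in either direction. Not all genes that this rule picks are named in the text. Relatives and other genes named as exceptions or as members of a count were named after their values were seen. Alternatives were 1 probe set per gene (that of the highest mean), arrays centred on their median, leaving out the dimmest 25% of genes, eBayes with trend and robust settings, leaving out each embryonic array, and other thresholds and reference stages. Python 3.11.15 with pandas 2.3.3 was used for the rest.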

Additional observations from a re-analysis of the deposited data

How the results depend on the processing

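Of 75 recalculations over 16 results, 70 gave a value within 1.5 times the reported one (or, for the median rise, within the spread around the fitted line). Leaving out each embryonic array in turn gave 21 to 32 rising partner genes (32 with all arrays; the lowest without E18.5) and 10 to 17 rising pan-epithelial genes (17 with all; the lowest without E13.5). With a threshold of 2 on the log2 scale, 0 genes were above E13.5 at E14.5, where Agr2 alone passed the 2-fold threshold, and with a 1.5-fold threshold 5 of the 9 rose after E18.5 instead of 3. The cause of the lower counts was not tested beyond the loss of 1 array. Onset moved for Clca1 (E15.5 on its brightest probe set), Agr2 (E15.5 with a threshold of 2 or with the mean of E13.5 and E14.5 as the reference) and Muc2 (E17.5 with a threshold of 2), and for none of the other 6 genes under these settings or with arrays centred on their median. E14.5 as the reference and the highest-mean probe set for the steps were chosen after seeing the data. No probe set that names several genes holds any of the 9, so adding such probe sets changed no value. No paired analysis was possible because each stage has 1 array.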

Other observations

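Lists of other cell types were read from the same limma fit, where the shares over all genes were 9.12% rising and 10.4% falling by embryonic day, and 4.23% higher and 3.26% lower on the lone adult array. Of 14 colonocyte genes, 11 rose and 11 were higher in the adult, with a median difference of 2.96 from the fitted E18.5 level. Lypd8, an antibacterial surface protein, rose by 1.53 per day (SE 0.13, adjusted p = 0.00113) and read 11.24 at E16.5. Atp12a rose by 1.30 (SE 0.17, adjusted p = 0.00378), from 4.76 at E13.5 to 10.62 by E18.5. Fabp2 rose by 1.14 (SE 0.20, adjusted p = 0.00921), from 5.69 to 10.80. Both were at least 2-fold above E13.5 from E16.5. In contrast, the carbonic anhydrases Car1 and Car4 read 6.84 and 5.20 at E18.5 and 13.19 and 11.53 in the adult.

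Of 14 enteroendocrine genes, 9 rose, 3 were higher and 1 was lower in the adult, the last near the share of all genes. Chga, Chgb, Pyy, Gcg, Sct and Insl5 were at least 2-fold above E13.5 from E16.5, as Muc2, Fcgbp, Clca1, Sval1 and Klk1 were. The rest of the list was not: Sst passed this fold from E18.5, and Neurod1 and Tph1 only in the adult. Neurog3, Cck, Scg2, Scg5 and Insm1 did not reach this fold and keep it through to the adult. The hormone gene Insl5 read 5.19 at E15.5, 7.98 at E16.5 and 10.28 at E17.5 (slope 1.33, SE 0.19, adjusted p = 0.00478), Gcg read 4.45, 6.70 and 8.84 at these stages, and Pyy read 7.53, 9.26 and 11.25. Of 14 genes of stroma and muscle, 8 rose, 2 fell, a share near that of all genes, and 4 were lower in the adult, among them Col1a2 (-2.07, SE 0.27, adjusted p = 0.00277) and Col3a1 (-1.82, SE 0.12, adjusted p = 0.000144).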
